A study of Rattus norvegicus with 6 samples.

Results

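The Wnt genes described here are 10 members of the pathway's outer layer, chosen by symbol: the ligands Wnt4, Wnt5a and Wnt6, the receptors Fzd1 and Fzd2, and the secreted antagonists Frzb, Sfrp1, Sfrp2, Sfrp4 and Dkk3. Every probe set annotated to exactly 1 of these symbols was taken, which gave 3 of the 8799 probe sets of the U34A array and 19 of the 31099 of the RAE2.0 array. U34A held only Fzd1, Fzd2 and Sfrp4, while RAE2.0 held all 10 genes. The material was total RNA of 3 populations of cultured olfactory ensheathing cells (OECs), the glia that wrap olfactory axons, all from the olfactory nerve layer of Wistar rats. TEG3 is a clonal line from rats 60 days old, transfected with the large T antigen of SV40 and passed for a long time, so it stands for 1 clone. OEC Lp is a primary culture from rats of postnatal day 21 that had passed 50 population doublings. OEC Ep is a primary culture from rats of the same age, kept for 1 week and for less than 3 doublings. All 3 grew in M3 medium with 3% serum, 20 µg/ml of bovine pituitary extract and 2 µM forskolin. Each population was measured on 1 U34A and 1 RAE2.0 array, 6 arrays in all, and each RNA pool combined 3 cultures. Since the labels do not say which pool went on which array, the spread between arrays may be technical.

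Wnt proteins are secreted, lipid-modified ligands that bind Frizzled receptors together with co-receptors of the Lrp5 and Lrp6 type. The best known result of binding is that beta-catenin escapes degradation and acts with Tcf and Lef factors on target genes, while other Wnts act without beta-catenin. Secreted Frizzled-related proteins, to which Frzb and the Sfrp genes belong, carry a Frizzled-like cysteine-rich domain and can hold Wnts away from the receptors, and Dickkopf proteins form a second class of secreted modulators.

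Signals are MAS5 intensities on a linear scale. Each array type was given a floor at its 40th percentile, 129.0 on U34A and 168.0 on RAE2.0, and a signal at or below it is treated as a bound. All arrays had a 2% trimmed mean near 1000 (1000.3 to 1002), and between 59.1 and 61.8% of probe sets lay above the floor. The label of an ensheathing cell was checked with its markers. Sox10, a transcription factor of neural crest glia, had signals on RAE2.0 of 233 in TEG3, 123 in OEC Lp and 5743 in OEC Ep, and S100b, a calcium-binding protein of glia, of 166, 60.0 and 40365 in the same order. Both genes were thus at or near the floor in TEG3 and OEC Lp. Ngfr, the low-affinity neurotrophin receptor, was below the floor there on RAE2.0 (133 in TEG3 and 16 in OEC Lp, against 12522 in OEC Ep) but not on U34A, with 1526 in TEG3, 992 in OEC Lp and 25277 in OEC Ep. Of 15 markers of OECs and Schwann cells on RAE2.0, 5 were above the floor in TEG3, 4 in OEC Lp and 14 in OEC Ep. On U34A more of them were detected in the long-term populations, with 9 of 14 above the floor in TEG3, 9 in OEC Lp and 13 in OEC Ep. Below, these populations keep their labels, and a difference between whole cultures cannot tell fewer cells of a type from less RNA per cell.

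The secreted antagonists Sfrp1 and Sfrp4 differed most between the populations and in opposite directions. Sfrp1, which binds Wnts through its cysteine-rich domain, was highest in OEC Ep and low in both long-term populations. Sfrp4, a relative best known from bone, rose in OEC Lp against OEC Ep. Among the ligands, Wnt6 was high in OEC Lp alone on RAE2.0, and the receptors Fzd1 and Fzd2 were well above the floor on every array.

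**Figure D1:**
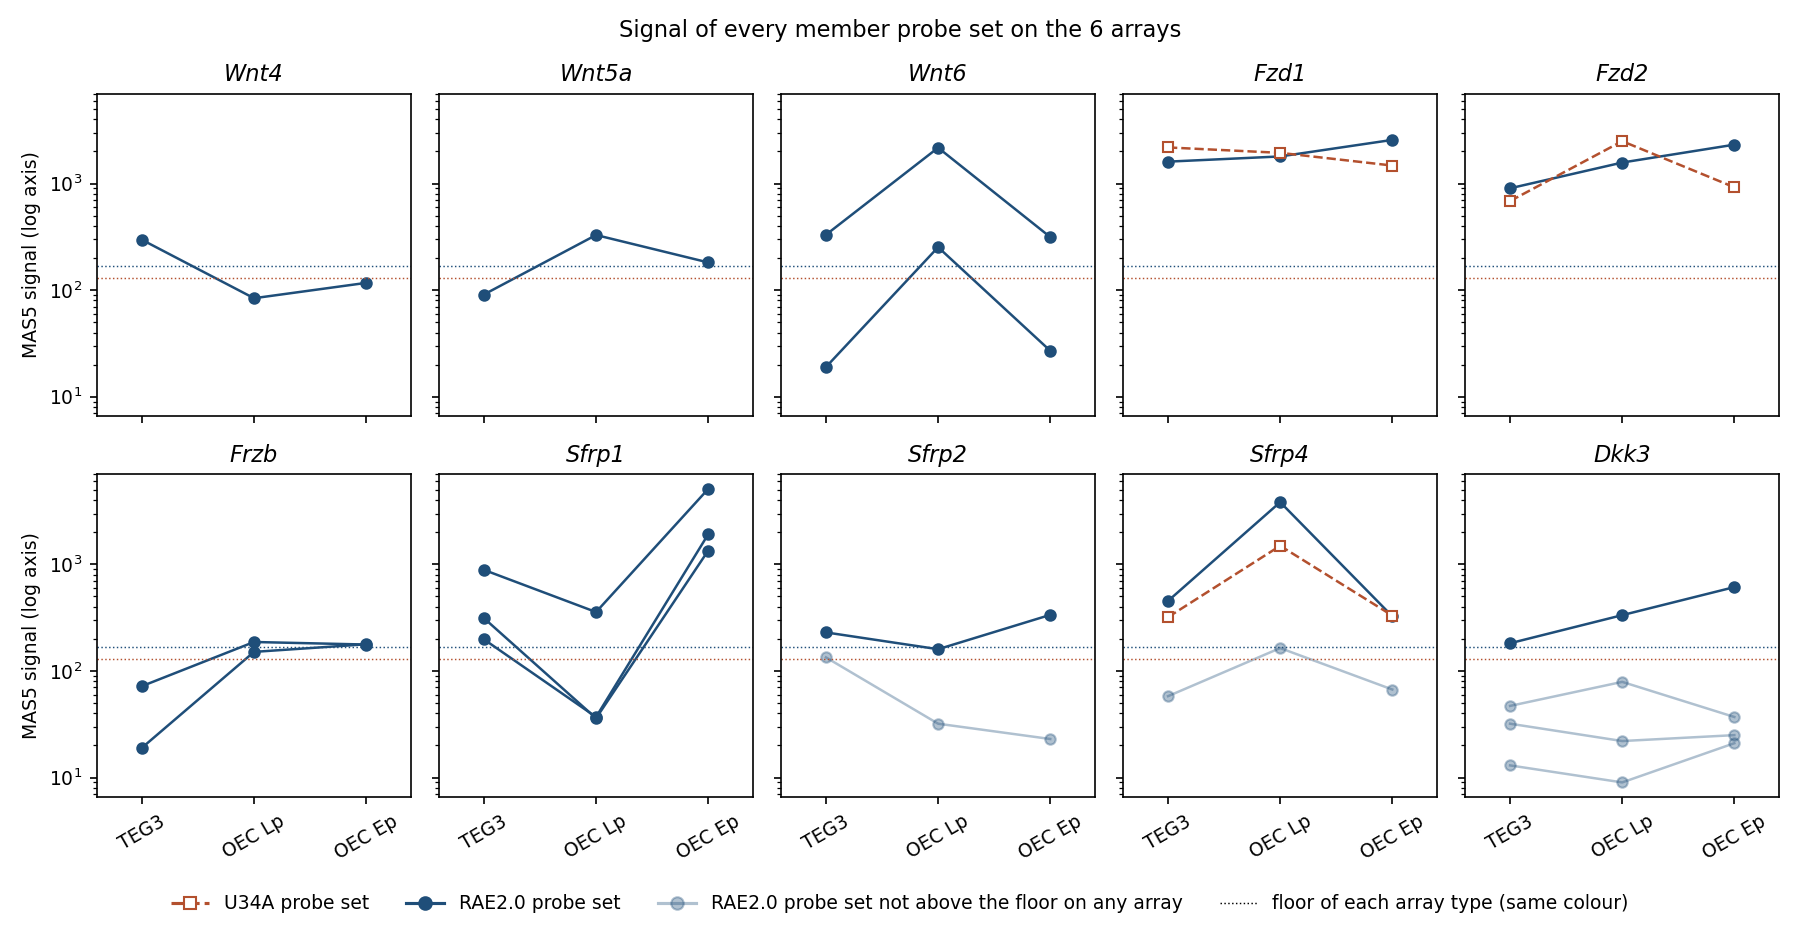
Each panel plots 1 gene, with MAS5 signal on a log axis for TEG3, OEC Lp and OEC Ep; each line is 1 probe set on the 3 arrays of a type (open squares U34A, filled circles RAE2.0), and pale lines are the 5 RAE2.0 probe sets at or below the floor of 168.0 on all arrays. Sfrp1 peaks in OEC Ep at 5099 and Sfrp4 and Wnt6 peak in OEC Lp at 3837 and 2170, while the lines of the 2 array types cross for Fzd1 and Fzd2.

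Of the 19 member probe sets on RAE2.0, 14 exceeded the floor on at least 1 array, 6 of them on all 3, and 5 on none. Those 5 are 3 of the 4 probe sets of Dkk3 and 1 each of Sfrp2 and Sfrp4. The 3 member probe sets on U34A were above the floor on all 3 arrays. Every member had at least 1 probe set past this filter on RAE2.0. Wnt4 passed it only through its signal in TEG3, so its higher value there was partly fixed by the filter.

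The 3 ligands were compared first. Wnt6, a ligand known from embryonic surface ectoderm in mice, had signals of 331 in TEG3, 2170 in OEC Lp and 315 in OEC Ep on its brighter RAE2.0 probe set. Its other probe set read 19.0 in TEG3, 253 in OEC Lp and 27.0 in OEC Ep. On the brighter probe set the OEC Lp array stood high, and TEG3 and OEC Ep lay close together. The dimmer one exceeded the floor in OEC Lp alone and passed the filter only through it, so its direction was fixed by the filter. The brighter probe set was 6.89-fold higher in OEC Lp than OEC Ep and 6.56-fold lower in TEG3 than in OEC Lp, and the dimmer was at least 1.51-fold higher in OEC Lp than OEC Ep. Wnt5a, the usual example of a ligand that acts without beta-catenin, had signals of 91.0 in TEG3, 329 in OEC Lp and 182 in OEC Ep on its single probe set. OEC Lp was highest, and its ratio to OEC Ep was 1.81. TEG3 was below the floor, at least 1.96-fold under OEC Lp. Wnt4, a ligand needed for kidney tubules in mice, went another way, with 297 in TEG3, 84.0 in OEC Lp and 117 in OEC Ep. It was at least 1.77-fold higher in TEG3 than in either primary culture, both of which were below the floor. None of these ligands has a U34A probe set, so the values rest on 1 array per population and have no test.

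The promoters of the 3 ligands are shown because they are the ligand genes whose values are given above. They come from RefSeq (build GRCr8), 300 bases around the annotated gene start, 5′ to 3′ on the gene's strand, with every CG dinucleotide in capitals. Wnt6 lies at chr9:83778302-83778601 on the plus strand, Wnt5a at chr16:3703415-3703714 on the plus strand and Wnt4 at chr5:154797200-154797499 on the plus strand.
Wnt6: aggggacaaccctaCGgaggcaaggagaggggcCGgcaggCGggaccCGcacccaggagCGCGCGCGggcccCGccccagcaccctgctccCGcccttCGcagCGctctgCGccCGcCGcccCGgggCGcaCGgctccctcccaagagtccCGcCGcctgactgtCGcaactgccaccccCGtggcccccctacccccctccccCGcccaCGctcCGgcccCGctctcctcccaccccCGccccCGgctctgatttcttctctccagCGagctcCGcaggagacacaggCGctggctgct
Wnt5a: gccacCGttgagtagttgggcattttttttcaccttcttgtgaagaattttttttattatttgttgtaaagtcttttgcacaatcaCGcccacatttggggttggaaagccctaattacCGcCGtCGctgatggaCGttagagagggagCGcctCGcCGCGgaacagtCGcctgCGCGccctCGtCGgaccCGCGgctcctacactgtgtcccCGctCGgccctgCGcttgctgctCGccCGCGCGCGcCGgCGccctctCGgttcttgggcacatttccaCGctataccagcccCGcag
Wnt4: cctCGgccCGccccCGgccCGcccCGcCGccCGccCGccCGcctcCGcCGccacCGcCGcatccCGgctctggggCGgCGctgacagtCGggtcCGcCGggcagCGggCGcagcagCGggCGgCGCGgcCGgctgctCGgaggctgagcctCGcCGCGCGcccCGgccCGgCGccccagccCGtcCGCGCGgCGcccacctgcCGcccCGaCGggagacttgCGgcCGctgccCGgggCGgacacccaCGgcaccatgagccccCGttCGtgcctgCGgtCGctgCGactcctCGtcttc
These windows hold 31 CG dinucleotides in Wnt6, 30 in Wnt5a and 53 in Wnt4, against a median of 7 over the 33469 rat promoters of the table, of which 0.385% hold as many as Wnt4. Promoters of 6 of the 10 members were in the table, the others being Frzb with 4 CG dinucleotides, Sfrp2 with 21 and Fzd1 with 24. The letters CTTTGAA or CTTTGAT or CTTTGTA or CTTTGTT, forms of the Tcf and Lef recognition motif, were searched on both strands and matched in 0 of the 6, against 17.1% of all promoters. The GC box letters GGGCGG, searched likewise, matched 5 times in Wnt6 and 9 times in Wnt4 and in none of the other 4, against 33.1% of all promoters with a match.

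The receptors gave different pictures on the 2 array types. Fzd1, a seven-pass receptor of Wnts, had U34A signals of 2183 in TEG3, 1942 in OEC Lp and 1476 in OEC Ep. On RAE2.0 it read 1606 in TEG3, 1797 in OEC Lp and 2569 in OEC Ep, which is the reverse order. The fitted log2 folds over both types were -0.06 ± 0.40 (SE) for OEC Lp over OEC Ep, -0.06 ± 0.40 for TEG3 over OEC Ep and 0.00 ± 0.40 for TEG3 over OEC Lp, with limma adjusted p-values of 0.958, 0.967 and 1. Fzd2, a related receptor, had U34A signals of 686 in TEG3, 2499 in OEC Lp and 923 in OEC Ep. Its RAE2.0 signals were 903 in TEG3, 1575 in OEC Lp and 2318 in OEC Ep. TEG3 was lowest on both types, but OEC Lp was 2.71-fold higher than OEC Ep on U34A and 1.47-fold lower on RAE2.0. Both Fzd2 probe sets are annotated to the same database sequence, and why they differ was not tested. The fitted log2 fold of Fzd2 was 0.44 ± 0.51 for OEC Lp against OEC Ep (limma adjusted p = 0.698), -0.89 ± 0.51 for TEG3 against OEC Ep (adjusted p = 0.372) and -1.33 ± 0.51 for TEG3 against OEC Lp (adjusted p = 0.301). No difference of either receptor passed the test. Opposite signs on the 2 types were seen for 32.0% of the 3129 genes measured on both between OEC Lp and OEC Ep, for 28.5% between TEG3 and OEC Ep and for 35.9% between TEG3 and OEC Lp.

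Sfrp4 is the one antagonist measured on both array types. Its U34A signals were 320.0 in TEG3, 1494 in OEC Lp and 331 in OEC Ep. On RAE2.0 its brighter probe set read 454 in TEG3, 3837 in OEC Lp and 326 in OEC Ep, and its other one 58.0, 164 and 67.0 in the same order, all below the floor. OEC Lp was the highest array for both probe sets above the floor, and TEG3 and OEC Ep lay closer to each other. In OEC Lp against OEC Ep the ratio was 4.51 on U34A and 11.8 on the brighter RAE2.0 probe set, and Sfrp4 rose 7.29-fold over both types (log2 fold 2.87 ± 0.41 SE, limma adjusted p = 0.0201). It was the 1 member called of the 3 tested, where 6.14% of all 3129 genes were called, 2.11% as higher and 4.03% as lower. In TEG3 against OEC Lp its log2 fold of -2.65 ± 0.41 missed the threshold (adjusted p = 0.0548), and between TEG3 and OEC Ep it was 0.21 ± 0.41 (adjusted p = 0.81). No member was called in either. Of all genes limma called 4.51% between TEG3 and OEC Ep (0.671% as higher and 3.84% as lower in TEG3), and 1.31% between TEG3 and OEC Lp (0.192% as higher and 1.12% as lower in TEG3). At an unadjusted p under 0.05 the limma fit held Sfrp4 (0.000582) in OEC Lp against OEC Ep. It held Sfrp4 (0.000864) and Fzd2 (0.0425) in TEG3 against OEC Lp, and no member between TEG3 and OEC Ep. As the share of all genes under that unadjusted p is not given here, these members have nothing to be set against. For Sfrp4 in OEC Lp against OEC Ep the limma adjusted p ran from 0.0134 to 0.333 over the alternatives that kept 2 arrays per population. With only the 4 arrays of these populations it was 0.0936, in a fit that called 38 of 3129 genes. Without either TEG3 array, OEC Lp and OEC Ep keep all their arrays, and the fit gave the same result as the 4 arrays, with a log2 fold of 2.87. A fit without 1 array of OEC Lp or OEC Ep leaves that population with a single array, so it cannot decide whether this call holds. Only log2 folds are given for these fits. It was 3.43 without the U34A array of OEC Lp and 2.31 without the RAE2.0 array of OEC Lp. Without the U34A array of OEC Ep it was 3.34, and without the RAE2.0 array of OEC Ep 2.39. The log2 fold was 1.98 with dim probe sets kept and 2.30 with a floor at the 20th percentile.

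The genes whose pattern over the 6 arrays was most like that of Sfrp4 were sought among the 250 other genes called in any comparison. Likeness was the root mean square difference of the 6 log2 signals, each centred on its mean within an array type. Nr3c2, the mineralocorticoid receptor, was nearest with 0.19. Rictor, a subunit of a TOR kinase complex, followed with 0.23 and Nbl1, a secreted antagonist of bone morphogenetic proteins, with 0.24. On RAE2.0 Nr3c2 was at the floor of 168.0 in TEG3 and OEC Ep and read 1799 in OEC Lp. It passed the filter there only through OEC Lp, which fixed its direction on that array type. Nbl1 had RAE2.0 signals of 739 in TEG3, 5444 in OEC Lp and 635 in OEC Ep and U34A signals of 625, 2923 and 431 in the same order. These 3 genes share the arrays with Sfrp4, and the distance is a description.

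Sfrp1 is on RAE2.0 only, with 3 probe sets that gave the same order. The brightest read 888 in TEG3, 357 in OEC Lp and 5099 in OEC Ep. The second read 198 in TEG3, 37.0 in OEC Lp and 1915 in OEC Ep, and the third 313, 36 and 1346. On each probe set OEC Ep was far above the others and OEC Lp was the lowest, below the floor on 2 of them. In OEC Lp against OEC Ep the signal was 14.3-fold lower on the first probe set and at least 11.4-fold and 8.01-fold lower on the others. Against OEC Ep, TEG3 was 5.74-fold, 9.67-fold and 4.30-fold lower. TEG3 exceeded OEC Lp by 2.49-fold on the first and by at least 1.18-fold and 1.86-fold on the others. With the mean of the log2 signals as the gene's value, 1.36% of the 11542 genes on RAE2.0 were as low or lower in OEC Lp against OEC Ep, and 2.4% between TEG3 and OEC Ep.

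The remaining antagonists were dim. Dkk3, a divergent Dickkopf protein, had signals of 182 in TEG3, 334 in OEC Lp and 612 in OEC Ep on the 1 probe set above the floor, so TEG3 was 3.36-fold and OEC Lp 1.83-fold lower than OEC Ep. Its other 3 probe sets read between 9 and 79.0. Sfrp2, which has a Frizzled-like domain as Sfrp1 does, read 230.0 in TEG3, 160.0 in OEC Lp and 336 in OEC Ep on its brighter probe set. OEC Lp was below the floor and at least 1.9999-fold lower than OEC Ep. The floored log2 ratio of -0.999923 is a bound, and it falls just short of the 2-fold threshold used for counts. Its other probe set was below the floor on all arrays, with 134 in TEG3, 32.0 in OEC Lp and 23.0 in OEC Ep, and gives no order. Frzb, also named Sfrp3, read 72.0 in TEG3, 187 in OEC Lp and 177 in OEC Ep on one probe set and 19.0, 151 and 178 on the other. Both primary cultures were near the floor and TEG3 was below it on both probe sets.

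**Figure D2:**
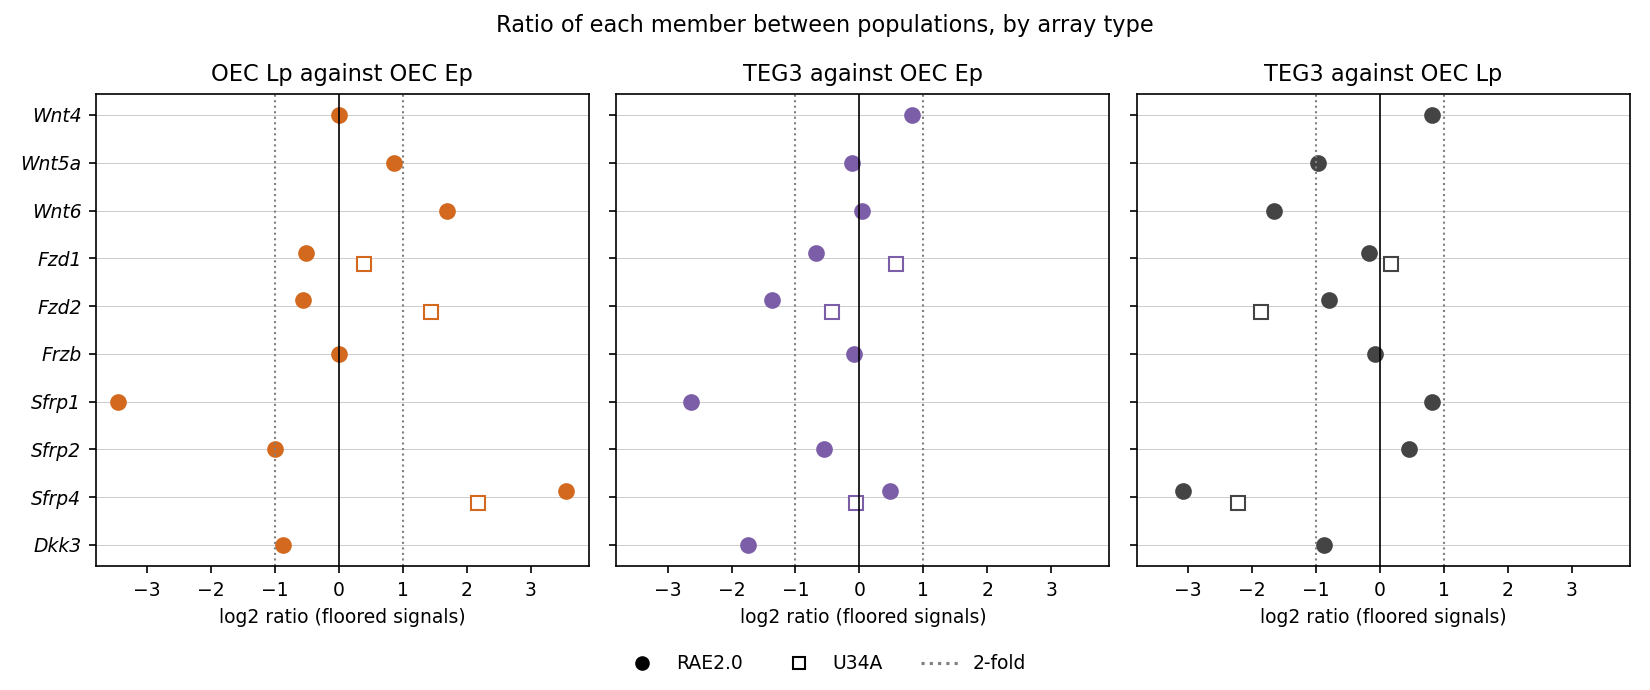
Log2 ratio of each member in the 3 comparisons (one panel each), from floored signals with a gene's probe sets averaged; circles are RAE2.0, open squares U34A, dotted lines mark 2-fold and each point is a ratio of 1 array to 1 array. Sfrp4 lies to the right at 3.56 and 2.17 and Sfrp1 to the left at -3.45 in OEC Lp against OEC Ep, and Fzd1 and Fzd2 lie on both sides of 0.

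Counted as genes on RAE2.0, 2 of 10 members (Wnt6 and Sfrp4) were at least 2-fold higher and 1 (Sfrp1) at least 2-fold lower in OEC Lp against OEC Ep, where 10.4% of all 11542 genes were higher and 10.4% lower. The median log2 ratio of the members was -0.26, against 0.10 over all genes. TEG3 relative to OEC Ep had 0 members higher and 3 (Fzd2, Sfrp1 and Dkk3) lower, where 12.1% of all genes were higher and 10.6% lower, and the medians were -0.33 for the members and 0.11 for all genes. TEG3 relative to OEC Lp had 0 members higher and 2 (Wnt6 and Sfrp4) lower, where 9.63% of all genes were higher and 8.66% lower, with medians of -0.48 for the members and 0.00 for all genes. On U34A, Fzd2 and Sfrp4 were the 2 of 3 members at least 2-fold higher in OEC Lp against OEC Ep and 0 were lower, where 11% of 3722 genes were higher and 10.2% lower. Between TEG3 and OEC Ep 0 of 3 passed 2-fold either way, where 10.5% of genes were higher and 13% lower in TEG3. Between TEG3 and OEC Lp the same 2 members were lower in TEG3 and 0 higher, where 8.01% of genes were higher and 11.6% lower. These counts have no test, and the comparisons share arrays.

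Markers of several cell types moved with these genes, as the plot of summed marker signals shows. In OEC Lp against OEC Ep on RAE2.0, beside the lower Sfrp1, 12 of 15 OEC and Schwann cell markers were at least 2-fold lower (summed signal 8112 in OEC Lp and 122784 in OEC Ep). So were 13 of 15 microglia and macrophage markers (3929 and 71020) and 4 of 10 neuron markers (1677 and 34769). In the OEC list 1 marker, Egr2, was at least 2-fold higher, with 1740 in OEC Lp and 446 in OEC Ep, and in the other lists 0. The macrophage genes Aif1 and Ptprc had signals of 8 and 7 in OEC Lp on RAE2.0, below the floor, against 6029 and 1064 in OEC Ep. On U34A the counts lower in OEC Lp were 11 of 14 OEC, 6 of 11 macrophage and 3 of 8 neuron markers. There 5 of 11 macrophage markers were above the floor in OEC Lp and 8 in OEC Ep. Aif1 read 29.0 in OEC Lp, below the floor, and 1648 in OEC Ep on U34A, and Ptprc 175 and 464, above it. Between TEG3 and OEC Ep the lower counts in TEG3 for these lists were 11 of 15, 13 of 15 and 5 of 10 on RAE2.0. On U34A they were 12 of 14, 7 of 11 and 4 of 8. Beside the higher Sfrp4 and Wnt6, fibroblast and meningeal markers went both ways in OEC Lp against OEC Ep, with 7 of 19 at least 2-fold higher and 6 lower on RAE2.0 and sums of 216882 in OEC Lp and 215540 in OEC Ep. On U34A 3 of 15 were higher and 6 lower, and the sums were 177084 and 159476. Prrx1, a mesenchymal transcription factor, had RAE2.0 signals of 393 in TEG3, 1385 in OEC Lp and 94.0 in OEC Ep, and Col3a1, a fibrillar collagen, 24383, 78964 and 21808. Col1a1, another fibrillar collagen, was highest in OEC Ep instead, with 9529 in TEG3, 14735 in OEC Lp and 34142 in OEC Ep. Among the other lower markers, chosen after their values were seen, were Postn, the matrix protein periostin, with 394 in OEC Lp and 56582 in OEC Ep, and Thy1, a surface glycoprotein, with 30 in OEC Lp and 2563 in OEC Ep. Relative to OEC Lp, 10 of 19 of these markers were at least 2-fold lower and 2 higher in TEG3 on RAE2.0, and 4 of 15 lower and 2 higher on U34A, where Col1a1 was higher (48067 in TEG3 and 17356 in OEC Lp). The part of other cell types in the Wnt gene values was not tested.

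**Figure D3:**
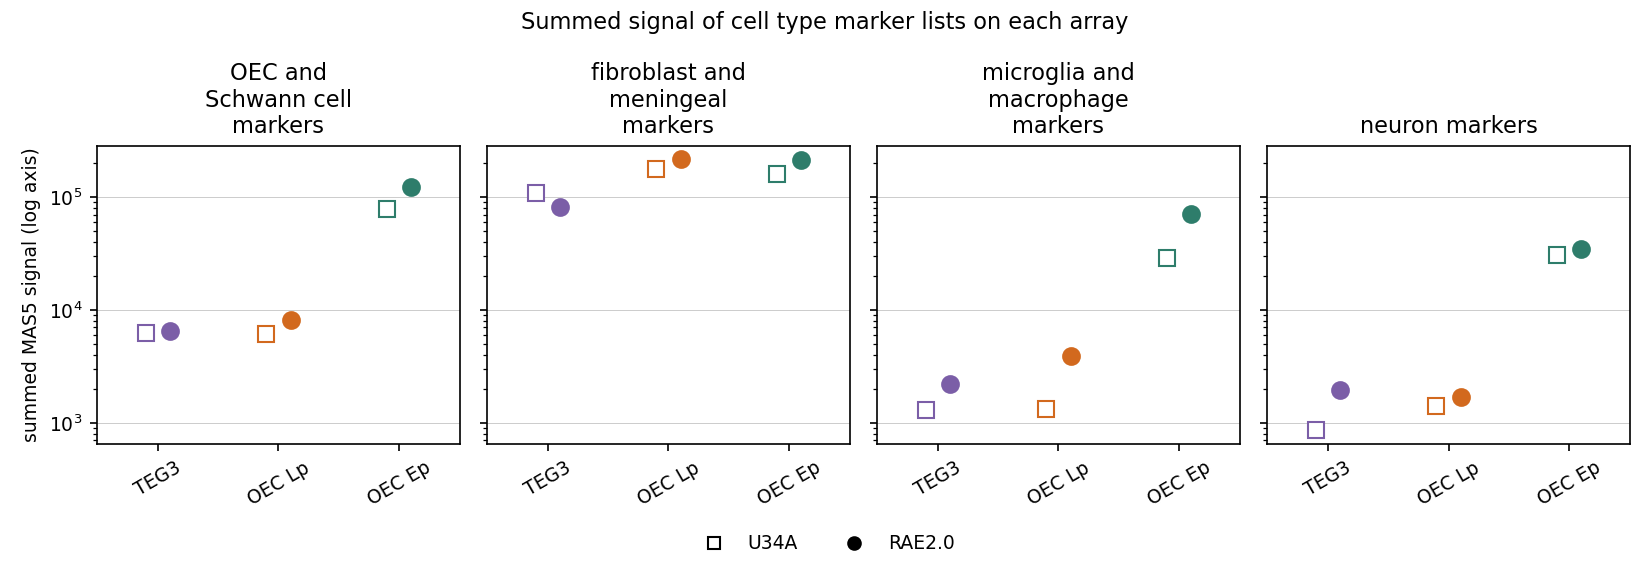
Summed MAS5 signal (log axis) of 4 marker lists in TEG3, OEC Lp and OEC Ep; each point is 1 array, open squares U34A and filled circles RAE2.0, with the brightest probe set of each gene. Sums of OEC, macrophage and neuron markers are highest in OEC Ep (122784, 71020 and 34769 on RAE2.0), and the fibroblast and meningeal sum of OEC Lp (216882) is close to that of OEC Ep (215540).

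The rest of the pathway was described with 122 other genes, of which 90 passed the filter on RAE2.0, 33 on U34A and 32 on both types. In OEC Lp against OEC Ep 18 of the 90 (20.0%) were at least 2-fold higher and 12 (13.3%) lower on RAE2.0, where 10.4% of all genes were higher and 10.4% lower, with a median log2 ratio of 0.17 against 0.10 over all genes. In TEG3, 9 were at least 2-fold higher and 16 lower than in OEC Ep, where 12.1% of all genes were higher and 10.6% lower, and the median was 0.00 against 0.11 over all genes. Set against OEC Lp, 5 were higher and 19 (21.1%) lower in TEG3, where 9.63% of all genes were higher and 8.66% lower, and the median was -0.26 against 0.00 over all genes. On U34A 2 of 33 were at least 2-fold higher and 4 lower in OEC Lp against OEC Ep (median -0.09). TEG3 had 2 higher and 3 lower against OEC Ep (median 0.04), and 2 higher and 3 lower against OEC Lp (median 0.31). Over all U34A genes the medians were 0.00, and the shares higher and lower 11 and 10.2%, 10.5 and 13% and 8.01 and 11.6%. The RAE2.0 excesses of 20.0% higher and 21.1% lower were thus not seen on U34A.

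Of 6 other ligands 2, and of 4 genes of secretion and R-spondins 1, were at least 2-fold higher in OEC Lp than OEC Ep, and 0 were at least 2-fold lower. Wnt16, a further ligand, had RAE2.0 signals of 30 in TEG3, 3001 in OEC Lp and 12 in OEC Ep, so it was at least 17.9-fold higher in OEC Lp than in either of the others. It passed the filter only through OEC Lp, as Fzd8 and Tnfrsf19 below did only through OEC Ep, which fixed these directions. Wls, the carrier that brings Wnts to the cell surface, had 7039 in TEG3, 19319 in OEC Lp and 2737 in OEC Ep. Of 12 receptors and co-receptors, 3 were at least 2-fold higher and 3 at least 2-fold lower in OEC Lp against OEC Ep. For these counts and those of the ligands and secretion genes, the shares over all genes were 10.4% higher and 10.4% lower. Fzd8, a Frizzled receptor, had 106 in TEG3, 10 in OEC Lp and 2701 in OEC Ep and was at least 16.1-fold lower in both long-term populations. Fzd6, another Frizzled, was 9.75-fold higher in TEG3 than in OEC Lp, with 2573 in TEG3, 264 in OEC Lp and 898 in OEC Ep. Fzd4, the Norrin receptor, read 391 and 1074 in TEG3, 309 and 408 in OEC Lp and 16.0 and 166 in OEC Ep on its 2 probe sets. Gpc4, a glypican of the cell surface, was lowest in TEG3, with 553 there, 2323 in OEC Lp and 4337 in OEC Ep. Igfbp4, which binds insulin-like growth factors and can inhibit Wnt signals, had 720.0 in TEG3, 261 in OEC Lp and 502 in OEC Ep.

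Inside the cell, 4 of 37 signalling genes were at least 2-fold higher and 2 lower in OEC Lp against OEC Ep. Over all genes on RAE2.0 the shares were 10.4% higher and 10.4% lower. Prickle1, Vangl2 and Celsr2 act in planar cell polarity. Prickle1 had a brighter probe set of 1189 in TEG3, 4674 in OEC Lp and 1133 in OEC Ep. Vangl2 read 812 in TEG3, 260.0 in OEC Lp and 242 in OEC Ep on its brighter probe set, and Celsr2 563, 156 and 578. Lef1, a nuclear partner of beta-catenin, was lower in both long-term populations, with 344 in TEG3, 779 in OEC Lp and 2807 in OEC Ep on the brighter of 2 probe sets.

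Of 20 target genes, 7 were at least 2-fold higher and 5 lower in OEC Lp against OEC Ep, 3 higher and 7 lower between TEG3 and OEC Ep, and 0 higher and 10 lower between TEG3 and OEC Lp. Over all genes the shares higher and lower were 10.4 and 10.4% in the first comparison, 12.1 and 10.6% in the second and 9.63 and 8.66% in the third. Ccn4, a matrix protein induced by Wnt1, had 351 in TEG3, 2240.0 in OEC Lp and 247 in OEC Ep. Twist1, a transcription factor of mesenchyme that stands on the fibroblast list too, had 1063 in TEG3, 2226 in OEC Lp and 136 in OEC Ep on its brighter probe set. Lower in OEC Lp were Nkd2, a feedback inhibitor, with 41.0 in TEG3, 421 in OEC Lp and 4647 in OEC Ep, and Tnfrsf19, a receptor of the tumour necrosis factor family, with 154, 13.0 and 883. Targets thus went both ways in OEC Lp against OEC Ep. The 0 higher and 10 lower in TEG3 against OEC Lp rest on 1 array per population and were not matched on U34A. There Fosl1 was at least 4.03-fold and Myc 2.02-fold higher in TEG3 than in OEC Lp. Axin2, with TEG3 at the floor, was at least 2.18-fold lower, and the other targets on U34A differed by less than 2-fold.

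**Figure D4:**
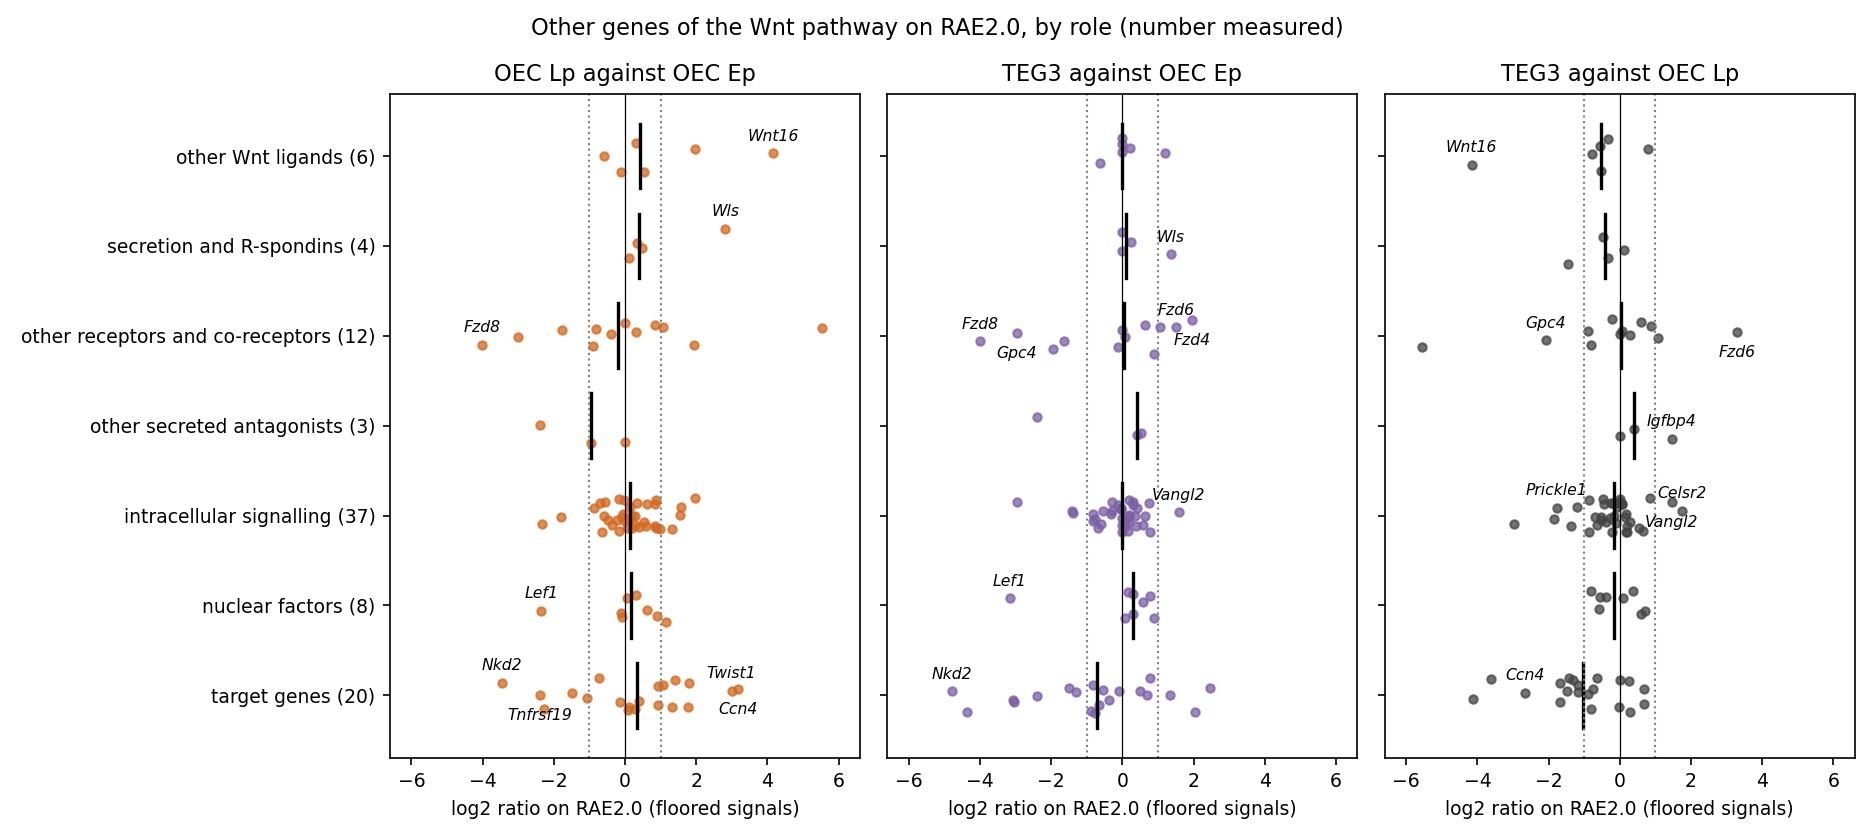
Log2 ratio on RAE2.0 of the 90 other Wnt pathway genes past the filter, by role (rows, with the number measured) and comparison (panels); each point is 1 gene from floored signals, black bars are medians and dotted lines mark 2-fold. In TEG3 against OEC Lp the 20 target genes lie mostly to the left, with 10 at least 2-fold lower and 0 higher. In OEC Lp against OEC Ep they lie on both sides. On U34A, not plotted, Fosl1 and Myc were at least 2-fold higher in TEG3 than in OEC Lp and Axin2 at least 2-fold lower.

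On both array types, limma called 0 of 32 pathway genes in OEC Lp against OEC Ep, 1 between TEG3 and OEC Ep and 0 between TEG3 and OEC Lp. Of all 3129 genes it called 6.14%, 4.51% and 1.31% in the same order. At an unadjusted p under 0.05 the limma fit held 4, 8 and 5 of the 32. The share of all genes under that p is not given here, so these 3 counts have nothing to be set against. The call was Jag1, a Notch ligand and Wnt target, which fell in TEG3 against OEC Ep (fitted log2 fold -3.59 ± 0.66, limma adjusted p = 0.0462). Its U34A signals were 87.0 in TEG3, 227 in OEC Lp and 916 in OEC Ep, and its RAE2.0 signals 250.0, 3089 and 5137. TEG3 was thus at least 7.10-fold lower than OEC Ep on U34A, where it was below the floor, and 20.5-fold lower on RAE2.0. With only the 4 arrays of TEG3 and OEC Ep the limma adjusted p was 0.124, in a fit that called 0 of 3129 genes. Without either OEC Lp array, TEG3 and OEC Ep keep all their arrays, and the fit gave the same result as the 4 arrays, with a log2 fold of -3.59. A fit without 1 array of TEG3 or OEC Ep leaves that population with a single array, so it cannot decide whether this call holds. Only log2 folds are given for these fits. It was -4.68 without the U34A array of TEG3 and -2.51 without the RAE2.0 array of TEG3. Without the U34A array of OEC Ep it was -3.66, and without the RAE2.0 array of OEC Ep -3.53. The 4 genes under that unadjusted p in OEC Lp against OEC Ep were named after their values were seen. Gpc3, a glypican, had U34A signals of 162 in TEG3, 938 in OEC Lp and 282 in OEC Ep and RAE2.0 signals of 168.0, 7855 and 168.0, both of these at the floor (log2 fold 3.64 ± 0.90, limma adjusted p = 0.0858). Axin2, a feedback target of beta-catenin, had U34A signals of 129.0 in TEG3, 281 in OEC Lp and 129.0 in OEC Ep, again with 2 values at the floor, and RAE2.0 signals of 221, 592 and 236 (log2 fold 1.23 ± 0.30, limma adjusted p = 0.0842). Lgr5, an R-spondin receptor, had a log2 fold of -2.17 ± 0.48 (limma adjusted p = 0.0661) and Cd44, a hyaluronan receptor, of -1.83 ± 0.53 (limma adjusted p = 0.131). None of these 4 passed the threshold. Gpc3 on RAE2.0 and Axin2 on U34A passed the filter only through OEC Lp, which fixed their direction on that array type, and their fitted folds include these values.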

How the data were processed

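Total RNA of 3 rat OEC populations was measured on 1 Affymetrix U34A and 1 RAE2.0 array each. The deposited signal intensities are the authors' MAS5 output, per the submitters' processing notes, and the design text names Microarray Suite 5.0 and a filter of unstated setting. No detection calls were used.

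Arrays were scaled to one 2% trimmed mean per type, 59 and 57 control probe sets were left out, and signals were floored at the 40th percentile. Probe sets above the floor on at least 1 of 3 arrays and with 1 annotated symbol were kept, and their scaled and floored signals, computed from the deposited intensities, were averaged per gene as log2. For the 3129 genes shared by the types, limma 3.58.1 (R 4.3.3) fitted terms for population and array type (the replicate block), with Benjamini-Hochberg over all genes at 0.05 and 2 residual and 3.64 prior degrees of freedom. Genes on RAE2.0 only have no test. The number of arrays limits the precision. The fit was tested on simulated data.

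Members, pathway list and marker lists were chosen with earlier results of these data known. Named are all members, pathway genes with an adjusted p under 0.05, the 4 highest and 4 lowest RAE2.0 ratios per comparison among pathway genes on RAE2.0 only, the 3 genes most like a called member, and Sox10, S100b, Ngfr, Col1a1, Col3a1, Prrx1, Aif1 and Ptprc, of which examples are given. Outside these rules Postn, Thy1, Egr2, Gpc3, Axin2, Lgr5, Cd44, Fosl1 and Myc were named after their values were seen. Alternatives changed the floor, filter, scaling, probe set, block and arrays. Symbols came from the platform annotation, promoters from RefSeq.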

Additional observations from a re-analysis of the deposited data

How the results depend on the processing

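The count of members called in OEC Lp against OEC Ep was 1 in the reported fit, with a floor at the 20th percentile, with quantile normalization, with the brightest probe set and when only probe sets above the floor on every array were kept. It was 0 without a floor, without the filter on dim probe sets, with no replicate block and with the 4 arrays of these populations. Fits without 1 array are not counted here, since a population's remaining array takes its spread from the other populations. The number of genes called over all was 192, and 66 without a floor, 122 with the lower floor, 77 above the floor on every array, 38 with 4 arrays, 1 without the filter and 0 with no replicate block. In TEG3 against OEC Lp 1 member, Sfrp4, was called with probe sets above the floor on all arrays (adjusted p = 0.0237) and with the brightest probe set (0.0489), over a range of 0.0237 to 0.767, and 0 otherwise. Jag1 lost its call between TEG3 and OEC Ep without a floor (0.0779), without the filter (0.317), with no replicate block (0.915) and with 4 arrays (0.124), over a range of 0.0387 to 0.915, and was not tested where every array had to exceed the floor. Over all genes that comparison called 141 in the reported fit, 11 without a floor and 1 without the filter. It called 0 with no replicate block or with 4 arrays. In TEG3 against OEC Ep no alternative called a member. On RAE2.0, the members at least 2-fold lower in OEC Lp against OEC Ep numbered 2 without a floor and 3 with quantile normalization, in place of 1. In TEG3 against OEC Ep 1 in place of 0 was at least 2-fold higher without a floor or with the lower floor. In TEG3 against OEC Lp 2 were higher without a floor or with the lower floor and 1 with the brightest probe set or with probe sets above the floor on every array, in place of 0, and 4 were lower without a floor or with the lower floor, in place of 2. Of 222 values of single members on 1 array type under an alternative, 37 moved by more than 0.49 on the log2 scale and none past 2-fold changed sign. The cause was not tested. Signals below the floor, which members other than Fzd1 and Fzd2 had on 1 or more RAE2.0 arrays, limit what these arrays show.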
